A study of Mus musculus with 20 samples.

Results

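Semaphorins are secreted or membrane-bound guidance proteins that steer axons, dendrites and migrating cells, and in the adult brain act on synapses and myelin. Plexins are their signalling receptors, and neuropilins are co-receptors that let the secreted class 3 semaphorins reach plexin-A and plexin-D1. Class 4, 5, 6 and 7 semaphorins are anchored in the membrane and mostly bind plexins directly. Sema5b is one of the pair of class 5 members, which carry thrombospondin repeats and bind plexin-A1 and plexin-A3 in mouse retina, where they restrain neurite growth.

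The members were all rows of the expression table named as a semaphorin, a plexin of groups A to D or a neuropilin and not at 0 in every library. There were 31 of 24528 genes: 20 semaphorins, 9 plexins and 2 neuropilins. Members were chosen by name, not by measured values, and all 31 passed the filter on floor values in both regions.

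The mice were male and female, 18 months old and of C57BL/6J background. TDP43-KQ mice (KQ below) were homozygous for the K145Q change in endogenous Tardbp, made by CRISPR/Cas9 in zygotes, which mimics an acetylated lysine in this RNA-binding protein. TDP43-WT mice (WT below) carried the unchanged gene. The change is germline, so every cell of the KQ animals carries it, and the founder line of the sequenced mice is not given in the sources used here. Total RNA was sequenced in 5 KQ and 4 WT libraries of hippocampus (3 females each, with 2 KQ males and 1 WT male) and in 6 KQ and 5 WT libraries of neocortex (3 females each, with 3 KQ males and 2 WT males). Values by library are listed as females 1 to 3 and then males, and p-values measure only the spread between these libraries. The deposited values are log2-like (variance-stabilised), with sex and litter removed, and each gene is set to a mean of 0 over the neocortex KQ libraries. They hold no read depth and no level that could be compared between genes, so all values below are differences on this log2-like scale.

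Some libraries were tied together by the removal of litter. Neocortex WT male 1 was alone in its litter, and in every gene its value was the mean of the other 4 neocortex WT libraries, so means and SDs leave it out (n = 4). The KQ female 2 libraries of hippocampus and neocortex were the only ones of theirs, and their deviations from their group means summed to 0 in every gene, so a high value in one is a low value in the other. Regional markers fitted the labels: the mean of 6 hippocampus neuron genes was 1.82 to 2.15 in hippocampus libraries, against -0.12 to 0.15 in neocortex libraries. Tardbp itself, the targeted gene, was higher in KQ by 0.86 ± 0.13 (SE) in hippocampus (limma adjusted p = 0.204) and by 0.99 ± 0.07 in neocortex (adjusted p = 0.00192). With both regions in 1 fit it passed in each, at 0.83 ± 0.10 in hippocampus (adjusted p = 0.00163) and at 0.996 ± 0.09 in neocortex (adjusted p = 0.000117).

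TDP-43 binds RNA rich in UG repeats, so the longest such repeat was read from the longest coding transcript of each member in GENCODE (build GRCm38). The lines show it for Sema5b, for the 4 other semaphorins whose KQ and WT libraries did not overlap in a region, and for the member with the longest repeat. Capitals mark the repeat within 30 bases of the sense strand, in DNA letters.
Sema5b: tgatagtcactgGTGTGTcctgcttcctgg
Sema3c: gggatcggcaGTGTGTGTGTatcatttatc
Sema6b: gtatgtgtgcGTGTGTGTGTgcgtatgcgt
Sema6d: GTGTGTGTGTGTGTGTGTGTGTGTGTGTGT
Sema7a: tacccctggacaTGTGTGaggtctacagcg
Nrp2: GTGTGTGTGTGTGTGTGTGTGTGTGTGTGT

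The Sema5b stretch lies in coding sequence at chr16:35662711-35662740 on the plus strand, inside a gene that spans 35541145 to 35664732. The stretches of Sema3c (chr5:17681951-17681980, plus strand) and Sema7a (chr9:57960599-57960628, plus strand) are also coding. Those of Sema6b (chr17:56123506-56123535, minus strand), Sema6d (chr2:124665913-124665942, plus strand) and Nrp2 (chr1:62817579-62817608, plus strand) lie in the 3′ UTR. The repeat is 40 bases long in Sema6d and 54 in Nrp2, of which 30 are shown. Sema5b held no TGTGTG on the sense strand of its 4646 bases, and Nrp1 was the only other member with none. This count takes 1 phase of the repeat and leaves out the GTGTGT of Sema5b. That repeat is 6 bases long, which is the median of the longest repeat over all genes, while the longest in Nrp1 has 4. TGTGTG was present in 29 of 31 members (93.5%), beside 70.0% of the 20330 genes of the table with a coding transcript, without matching for length. Introns were not searched, and a match in a transcript is a description of letters, not a binding site.

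The first question was which members differ between KQ and WT brain, tested with limma within each region with sex and litter as terms and p-values adjusted over all genes tested. Sema5b was lower in KQ in both regions. Its hippocampus values were -0.30, -0.29, -0.16, -0.31 and -0.38 in KQ, against 0.38, 0.22, 0.53 and 0.49 in WT. Its neocortex values were 0.16, -0.0019, -0.15, -0.02, 0.04 and -0.03 in KQ, against 0.73, 0.74, 0.60 and 0.75 in WT. Every KQ library lay below every WT library of the same region, and the highest KQ value in hippocampus, -0.16, stood 0.38 under the lowest WT value there, 0.22.

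In hippocampus Sema5b averaged -0.29 ± 0.08 in KQ (SD, n = 5) and 0.41 ± 0.14 in WT (SD, n = 4). In neocortex it averaged 0 in KQ by construction, with an SD of 0.10 (n = 6), and 0.71 ± 0.07 in WT (SD, n = 4). The fitted difference was -0.72 ± 0.09 (SE; 95% interval -0.92 to -0.52) in hippocampus and -0.69 ± 0.06 (95% interval -0.81 to -0.56) in neocortex. Read as log2, these are 0.607-fold and 0.620-fold, but the values are only log2-like, so these are not measured ratios of expression. In hippocampus the sex and litter terms absorb WT female 3, KQ female 2 and KQ female 3, and leaving out any of them changed nothing. The hippocampus fits thus compare KQ female 1 with WT females 1 and 2, and KQ males 1 and 2 with WT male 1. In bulk tissue, fewer cells of a type and less RNA per cell cannot be told apart.

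The neocortex difference passed the test, with an adjusted p of 0.00368 by limma, and ranked 2 of 18329 genes both from the most negative difference and by p. The hippocampus difference ranked 1 of 18310 genes by p, but its adjusted p of 0.152 missed the threshold of 0.05 with 3 residual degrees of freedom. With both regions in 1 fit Sema5b passed in hippocampus at -0.69 ± 0.08 (SE), adjusted p = 0.00163, and in neocortex at -0.71 ± 0.08, adjusted p = 0.000464, and it passed in both when any 1 of the 20 libraries was left out. Within neocortex alone it missed the threshold without KQ female 3, KQ male 1 or WT female 3, which all return the same fit (-0.66, adjusted p = 0.0505). It also missed the threshold without WT male 2 (-0.63, adjusted p = 0.208). Leaving out KQ female 2 or WT male 1 returned the main neocortex fit unchanged. Over libraries alone, an exact two-sided permutation test gave p = 0.00794 in hippocampus and p = 0.00476 in neocortex, in each case the smallest p that the group sizes allow. That test treats libraries as exchangeable, although sex and litter had been removed and no label says how separately the libraries were prepared. The study, by DESeq2, had already reported Sema5b among the changed genes of both regions in these data, with a 2-fold reduction and as the most reduced transcript in hippocampus. Its fold change and its call come from another scale and test than those used here. Groups that do not overlap give the smallest p whatever their distance. The permutation test thus adds nothing to the lack of overlap given above.

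**Figure D1:**
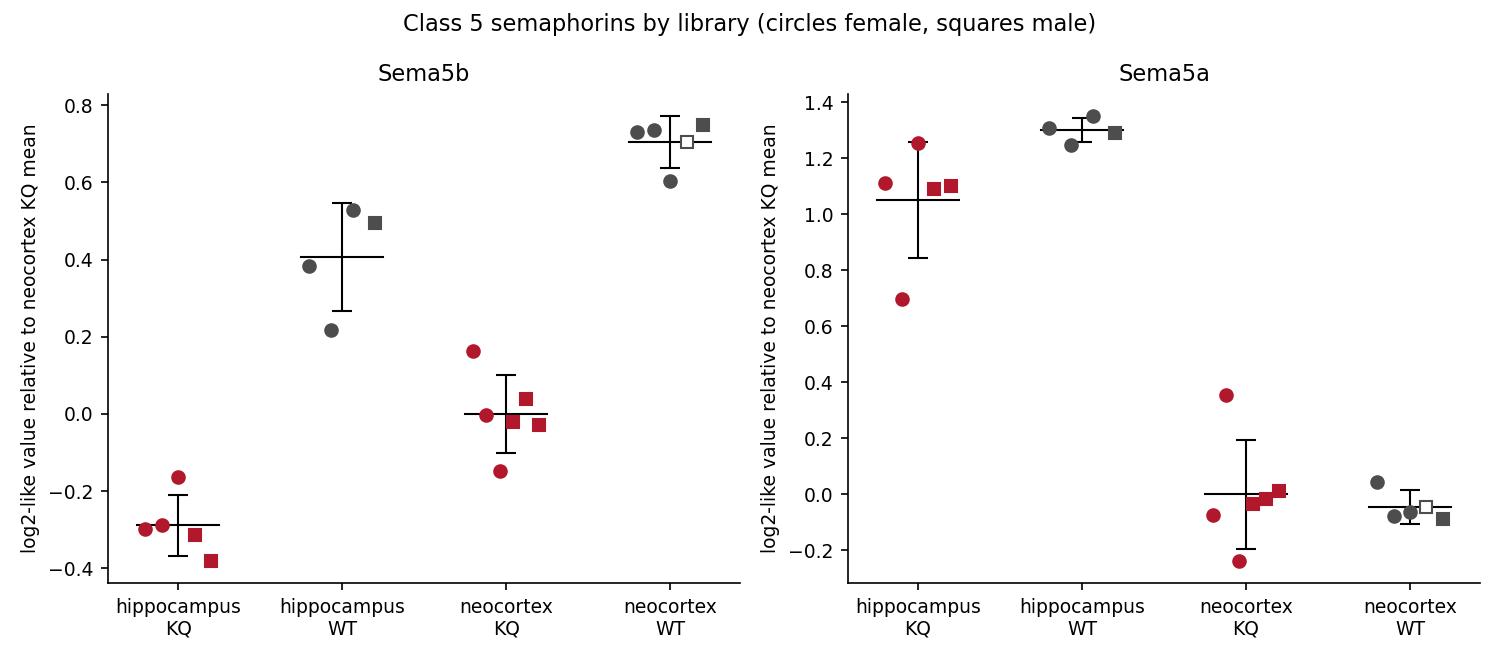
Sema5b (left panel) and Sema5a (right panel) in each library on the log2-like scale, with the mean and SD of each group as black lines, and circles for females and squares for males. The open square is neocortex WT male 1, left out of the mean. Sema5b lies at -0.38 to -0.16 in hippocampus KQ against 0.22 to 0.53 in hippocampus WT, while Sema5a is high in hippocampus of both genotypes.

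The size of the Sema5b difference was much the same in the regions. The effect in hippocampus minus that in neocortex was 0.01 ± 0.10 (SE), with a 95% interval of -0.21 to 0.23 and an adjusted p of 0.989. Sema5b was also lower in hippocampus than in neocortex within each genotype, by -0.29 ± 0.07 in KQ (adjusted p = 0.00373) and by -0.30 ± 0.08 in WT (adjusted p = 0.00880).

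The other class 5 member, Sema5a, a guidance cue that can attract or repel axons, did not share this pattern. Its hippocampus values were 1.11, 0.70, 1.25, 1.09 and 1.10 in KQ, against 1.31, 1.25, 1.35 and 1.29 in WT. Its neocortex values ran from -0.24 over a median of -0.03 to 0.35 in KQ, against 0.04, -0.08, -0.06 and -0.09 in WT. The groups overlapped in both regions, and the lowest hippocampus KQ value and the highest neocortex KQ value are the tied KQ female 2 libraries. The fitted difference was -0.18 ± 0.06 in hippocampus (adjusted p = 0.341) and -0.03 ± 0.06 in neocortex (adjusted p = 0.842).

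Of the 31 members, 0 passed the test in hippocampus, where 0% of all 18310 genes tested were called. In neocortex Sema5b alone passed, where 0.0382% of 18329 genes were called. At an unadjusted p under 0.05 there were 9 members in hippocampus, beside 12.1% of all genes, and 11 members in neocortex, beside 13.7% of all genes. In neocortex 30 of 31 members (96.8%) had a 95% interval that lay within a 1.5-fold change in either direction on this scale, all but Sema5b. Of all genes tested there, 98.3% did. In hippocampus 26 members did (83.9%), beside 94.5% of all genes, and the others were Sema5b, Sema3b, Sema3f, Sema4f and Plxnb2. Members were thus within this bound less often than genes at large in hippocampus. The median difference over members was 0.02 in hippocampus and 0.06 in neocortex, beside -0.0047 and -0.0037 over all genes.

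**Figure D2:**
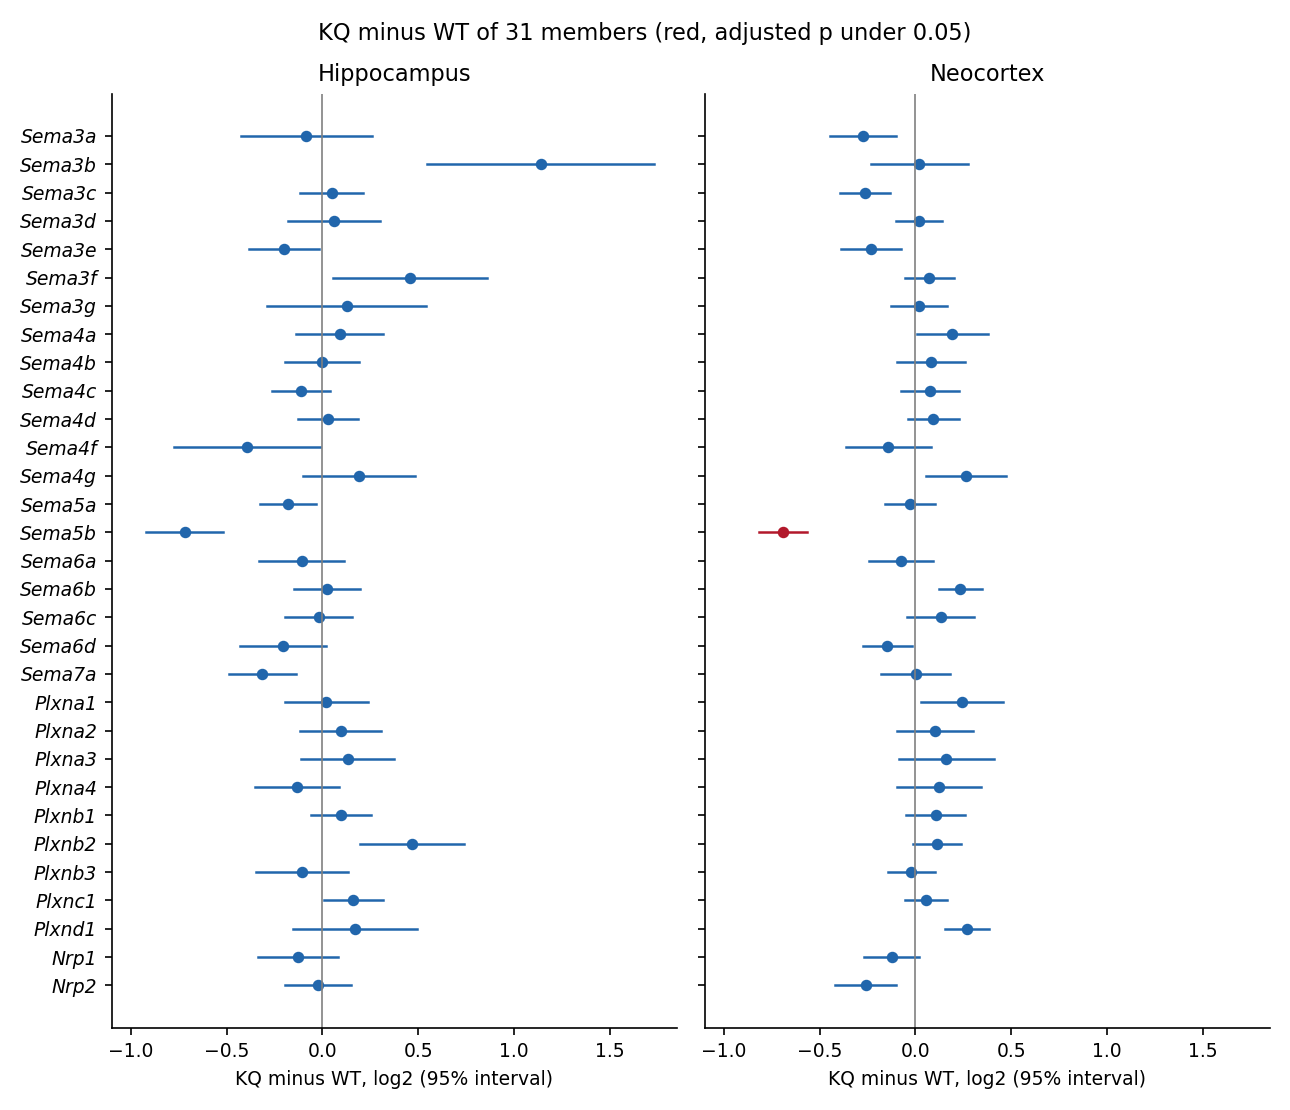
KQ minus WT of each member in hippocampus (left panel) and neocortex (right panel) on the log2-like scale, as the fitted difference with its 95% interval; red marks an adjusted p under 0.05. Sema5b lies at -0.72 and -0.69, and the widest intervals are those of Sema3b, Sema3f and Sema4f in hippocampus.

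Neither Plxna1 nor Plxna3, possible receptors of Sema5b, passed the test in either region. Plxna1 was at 0.52, 0.46, 0.58, 0.47 and 0.44 in hippocampus KQ, against 0.56, 0.28, 0.59 and 0.51 in hippocampus WT, and the groups overlapped. In neocortex Plxna1 ran from -0.20 over a median of 0.0066 to 0.16 in KQ, against -0.15, -0.41, -0.24 and -0.22 in WT, a difference of 0.24 ± 0.10 (SE) with an adjusted p of 0.323. When any 1 neocortex library was left out, its difference ran from 0.14 to 0.36 and did not pass, but it passed in neocortex in the 4 fits without litter as a fixed term, which count no degrees of freedom for the litter already removed and call 10.1% to 15% of all genes. Plxna3 differed by 0.13 ± 0.10 in hippocampus (adjusted p = 0.6254) and by 0.16 ± 0.11 in neocortex (adjusted p = 0.511).

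The 9 plexins as a group had 0 members called in either region. Their median difference was 0.10 in hippocampus, with 7 of 9 above 0, and 0.11 in neocortex, with 8 of 9 above 0, where 48.3% and 48.5% of all genes lay above 0. In neocortex the highest was Plxnd1, the receptor for Sema3e, at 0.27 ± 0.05 (adjusted p = 0.164). Both neuropilins were below 0 in both regions, and Nrp2, the co-receptor that prefers Sema3f, was furthest from 0 at -0.26 ± 0.07 in neocortex (adjusted p = 0.237). The library neocortex WT female 2 had the lowest value of its group in 8 of 9 plexins, all but Plxnb3, and hippocampus WT female 2 had the lowest value of its group in 7 of 9.

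KQ and WT libraries did not overlap for 3 of 31 members in hippocampus and for 4 of 31 in neocortex. Over all genes this held for 9.45% in hippocampus and for 8.51% in neocortex, so the member shares, 9.68% and 12.9%, lie near the background. Apart from Sema5b, these were Sema6d and Sema7a in hippocampus and Sema3c, Sema6b and Plxnc1 in neocortex.

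Sema7a is a GPI-anchored semaphorin that signals through integrins and plexin-C1. Its hippocampus values were -0.85, -0.46, -0.54, -0.57 and -0.60 in KQ, against -0.40, -0.46, -0.34 and -0.38 in WT. The nearest libraries, KQ female 2 at -0.464 and WT female 2 at -0.463, were barely apart, and the fitted difference was -0.31 ± 0.07 (SE) with an adjusted p of 0.275. Sema6d, a transmembrane semaphorin that binds plexin-A1, was at 0.31, 0.39, 0.42, 0.45 and 0.16 in hippocampus KQ, against 0.50, 0.62, 0.58 and 0.47 in hippocampus WT. Its difference was -0.21 ± 0.10, with an adjusted p of 0.435.

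Sema3c is a secreted semaphorin that attracts cortical axons. In neocortex it ran from -0.13 over a median of 0.03 to 0.10 in KQ, against 0.16, 0.24, 0.25 and 0.23 in WT, a difference of -0.26 ± 0.06 (SE) with an adjusted p of 0.182. In hippocampus its values were 0.03, -0.11, 0.05, 0.05 and -0.07 in KQ, against -0.03, 0.06, -0.15 and -0.08 in WT, which overlap. The effect in hippocampus minus that in neocortex was 0.27 ± 0.08 and did not pass (adjusted p = 0.779).

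Sema6b, a transmembrane ligand of plexin-A4, ran in neocortex from -0.05 over a median of 0.0015 to 0.05 in KQ, against -0.18, -0.25, -0.20 and -0.22 in WT. The difference was 0.24 ± 0.05 (SE) with an adjusted p of 0.178, and 0.21 ± 0.05 with an adjusted p of 0.0647 with both regions in 1 fit. In hippocampus it was at -0.21, -0.11, -0.16, -0.0078 and -0.14 in KQ, against -0.14, -0.16, -0.20 and -0.17 in WT, and the groups overlapped. Plxnc1, the receptor of Sema7a, ran in neocortex from -0.04 over a median of -0.02 to 0.08 in KQ, against -0.10, -0.15, -0.04 and -0.07 in WT. The nearest libraries were barely apart, at -0.039 in KQ and -0.043 in WT, and the difference was 0.06 ± 0.05 (adjusted p = 0.597).

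Sema3b, Plxnb2 and Sema3f had large differences in hippocampus that did not pass, and they are described here because of their values. Sema3b, a secreted semaphorin that binds neuropilins, was at 1.73, 0.48, 0.66, 1.08 and 1.005 in hippocampus KQ, against -0.13, -0.02, 0.13 and 0.57 in hippocampus WT. Its difference was 1.14 ± 0.25 (SE), with an adjusted p of 0.263. Plxnb2, a receptor of class 4 semaphorins, was at 0.78, 0.20, 0.31, 0.52 and 0.49 in KQ, against 0.07, 0.03, 0.25 and 0.30 in WT, a difference of 0.47 ± 0.12 (adjusted p = 0.275). Sema3f was at -0.02, -0.26, -0.53, -0.36 and -0.30 in KQ, against -0.68, -1.03, -0.63 and -0.41 in WT, a difference of 0.46 ± 0.17 (adjusted p = 0.366). In all of them the top library was KQ female 1 and the groups overlapped at their edges.

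Choroid plexus genes were also highest in KQ female 1. The mean of 5 choroid plexus genes was 4.18, 0.30, 1.97, 2.65 and 2.69 in hippocampus KQ, against -0.06, 0.78, 1.23 and 2.38 in hippocampus WT, in the same order of libraries. For Sema3f the order of the other KQ libraries was another one: KQ female 2, with the lowest choroid plexus mean of the KQ libraries, was next to the highest in Sema3f, and KQ female 3 was the lowest. All 5 genes lay above 0 in KQ minus WT, with a median of 1.77 and 0 of 5 called, and their part in these differences was not tested. The mean of 5 meningeal fibroblast genes likewise ran from 0.41 to 0.85 in hippocampus KQ, against -0.02 to 0.48 in hippocampus WT. With both regions in 1 fit the meningeal gene Lum passed in hippocampus at 0.51 ± 0.10 (SE; adjusted p = 0.0364). Without KQ female 1 the fitted differences were 0.47 for Sema3b, 0.20 for Plxnb2 and 0.08 for Sema3f. That fit compares KQ males 1 and 2 with WT male 1 alone. Without WT male 1 they were 1.81 for Sema3b and 0.73 for Plxnb2, and that fit compares KQ female 1 alone with WT females 1 and 2. The sex and litter terms absorb the remaining libraries in both fits, so only effect sizes are given.

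**Figure D3:**
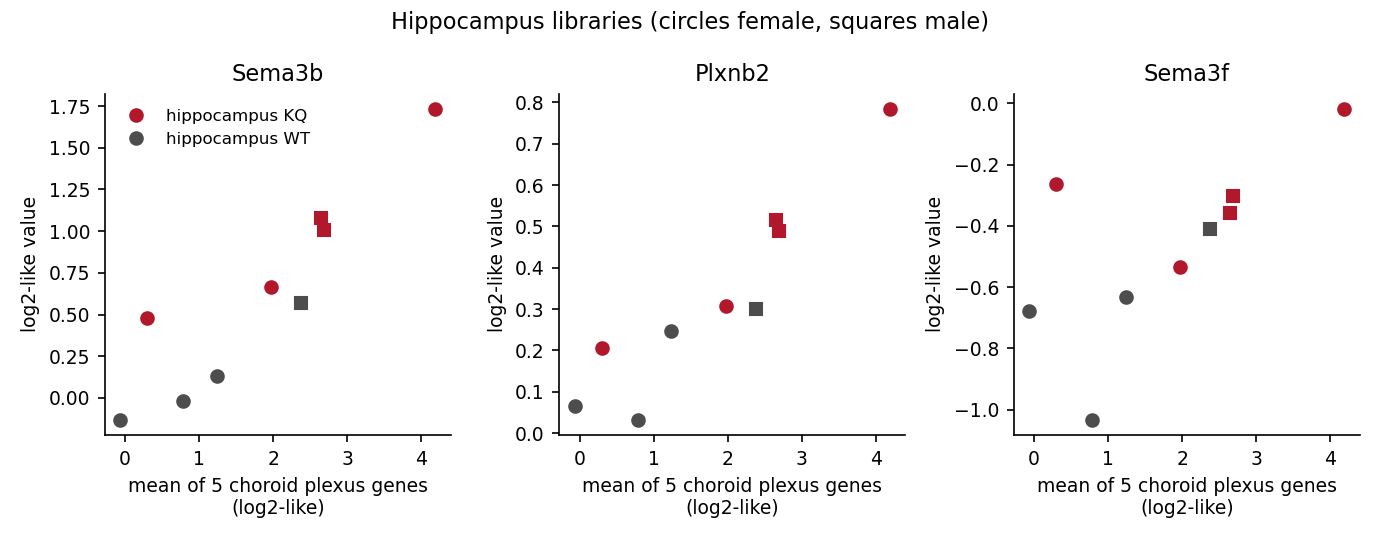
Sema3b, Plxnb2 and Sema3f in each hippocampus library against the mean of 5 choroid plexus genes in that library, both on the log2-like scale. KQ female 1 lies at 4.18 on the horizontal axis with the top value in each panel, 1.73 for Sema3b.

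Marker genes of other cells were set beside the Sema5b difference, and none of those below passed in the fit of a single region. The mean of 6 interneuron genes ran from -0.50 to -0.36 in hippocampus KQ against -0.30 to -0.12 in hippocampus WT, and from -0.08 to 0.06 in neocortex KQ against 0.15 to 0.27 in neocortex WT. All 6 lay below 0 in both regions, with medians of -0.21 in hippocampus and -0.17 in neocortex and 0 called. With both regions in 1 fit 5 of 6 lay below 0 in hippocampus, and Sst, a neuropeptide of interneurons, passed there at -0.44 ± 0.06 (SE; adjusted p = 0.00773). The 10 oligodendrocyte genes likewise all lay below 0, with medians of -0.36 in hippocampus and -0.19 in neocortex and 0 called. All 6 microglia genes lay below 0 in both regions (medians of -0.15 in hippocampus and -0.17 in neocortex), as did 4 of 6 astrocyte genes in hippocampus and 6 of 6 in neocortex. The mean of 5 striatal projection neuron genes ran from -0.27 to 0.19 in neocortex KQ against 0.03 to 0.49 in neocortex WT, which overlap, and their median difference was 0.02 in hippocampus and -0.38 in neocortex. Other lists lay on both sides of 0. Oligodendrocyte precursor genes had medians of 0.01 in hippocampus (3 of 5 above 0) and -0.09 in neocortex (1 of 5). Endothelial genes had medians of 0.08 in hippocampus (3 of 5) and -0.16 in neocortex (1 of 5). Neocortex neuron genes had medians of -0.19 in hippocampus (0 of 6) and 0.09 in neocortex (5 of 6). The part of these shifts in the Sema5b difference was not tested.

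Genes that act with plexins were set beside the members. Of 18 other semaphorin receptors and co-receptors, 18 could be tested in hippocampus and 17 in neocortex, and 0 were called in either. Of 28 signalling effectors below plexins, 0 were called in hippocampus or neocortex, with median differences of -0.05 and 0.0002. KQ and WT libraries did not overlap for Mst1r, Fyn, Arhgef11 and Gipc1 in hippocampus and for Chl1 and Rock2 in neocortex, which is 4 of 46 genes tested (8.70%) and 2 of 45 (4.44%), at or below the 9.45% and 8.51% of all genes. Their differences ran from -0.11 for Fyn to 0.14 for Mst1r in hippocampus, and were 0.11 for Chl1, an adhesion molecule that binds Nrp1, and -0.11 for Rock2 in neocortex.

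The second question was how the members differ between regions, tested in 1 fit of all 20 libraries. Females of the same genotype and number share a litter across the regions, so they may be the same mice. This fit, also used above for genotype, treats all libraries as independent. A fit that joins these females by a random effect is given among the alternatives at the end. In KQ 21 of 31 members passed, 12 higher and 9 lower in hippocampus, where 35.4% of 17863 genes were called. In WT 19 of 31 passed, 12 higher and 7 lower, where 28.2% of genes were called. By direction, 17.2% of genes were higher and 18.2% lower in KQ, and 13.5% higher and 14.7% lower in WT. The members called in both genotypes numbered 16, all in the same direction, and 13 of these passed in both when any 1 library was left out.

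**Figure D4:**
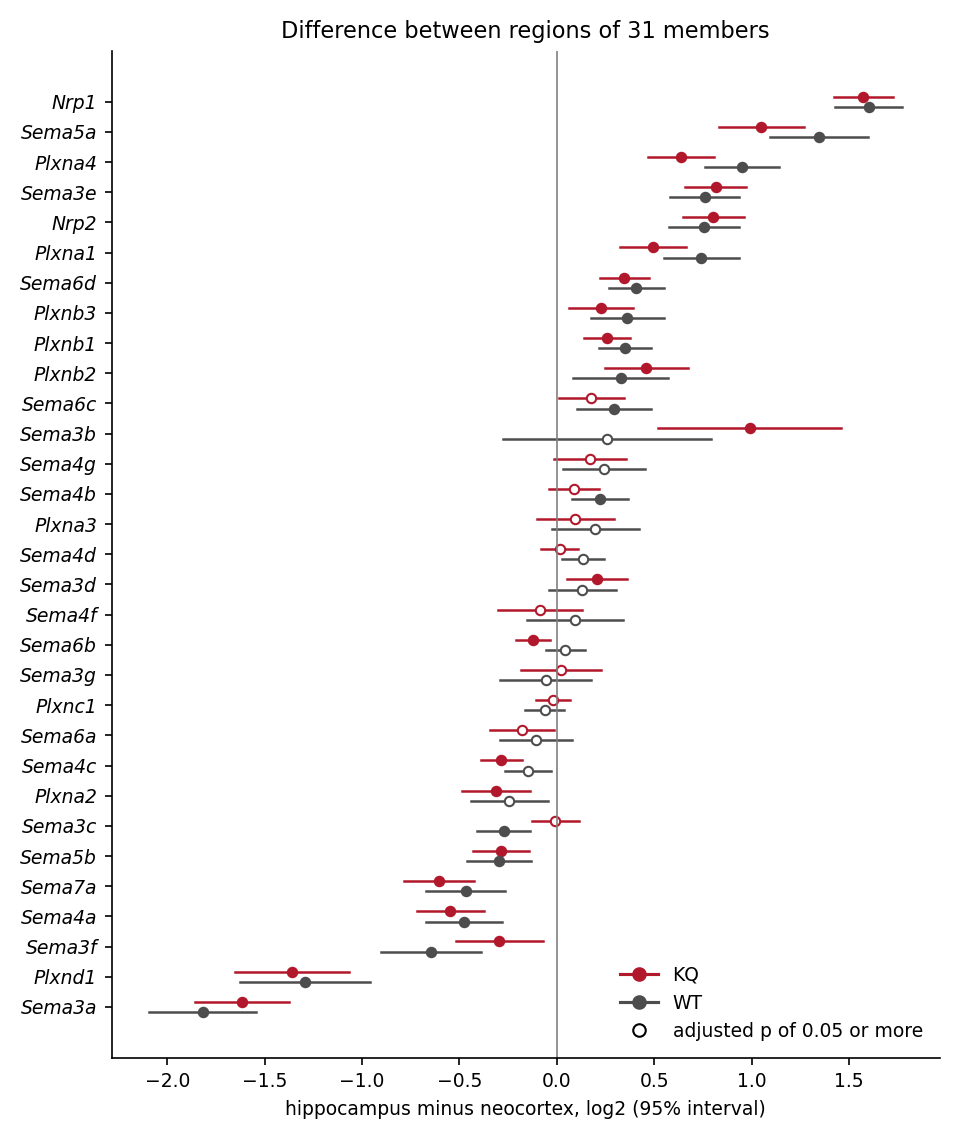
Hippocampus minus neocortex of each member in KQ (red) and WT (grey) on the log2-like scale, ordered by the WT difference, with 95% intervals; filled points have an adjusted p under 0.05. Nrp1 is at the top at 1.57 in KQ and 1.60 in WT, and Sema3a at the bottom at -1.62 in KQ and -1.82 in WT.

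Both neuropilins were higher in hippocampus. Nrp1, the co-receptor for Sema3a, was at 1.49, 1.47, 1.76, 1.4999 and 1.65 in hippocampus KQ, against -0.19 to 0.15 in neocortex KQ with a median of -0.02. In WT it was at 1.81, 1.64, 1.73 and 1.59 in hippocampus, against 0.12, 0.10, 0.07 and 0.07 in neocortex. The differences were 1.57 ± 0.07 (SE) in KQ (adjusted p = 3.30e-10) and 1.60 ± 0.08 in WT (adjusted p = 1.66e-09). Nrp2 differed by 0.80 ± 0.07 in KQ and by 0.75 ± 0.08 in WT.

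Class 3 ligands differed in both directions. Sema3a, the founding repulsive semaphorin, was at -1.498, -1.49, -1.83, -1.40 and -1.86 in hippocampus KQ, against -0.20 to 0.23 in neocortex KQ with a median of -0.02. In WT it was at -1.66, -1.28, -1.71 and -1.49 in hippocampus, against 0.20, 0.32, 0.44 and 0.18 in neocortex. The differences were -1.62 ± 0.11 (SE) in KQ and -1.82 ± 0.13 in WT (adjusted p = 3.39e-08 in KQ and 5.28e-08 in WT), the most negative of the family. Sema3a and its co-receptor Nrp1 thus stood at opposite ends of the order of members, and no hippocampus library of either overlapped a neocortex library.

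Sema3e was at 0.74, 0.84, 1.02, 0.67 and 0.81 in hippocampus KQ, against -0.15 to 0.20 in neocortex KQ with a median of 0.01. In WT it was at 1.05, 1.02, 0.92 and 0.85 in hippocampus, against 0.21, 0.23, 0.19 and 0.17 in neocortex. Its receptor Plxnd1 had the opposite sign. Plxnd1 was at -1.32, -0.996, -1.75, -1.15 and -1.58 in hippocampus KQ, against -0.36 to 0.29 in neocortex KQ with a median of 0.05. In WT it was at -1.67, -1.33, -1.46 and -1.52 in hippocampus, against -0.17, -0.30, -0.14 and -0.20 in neocortex. The differences of Sema3e were 0.82 ± 0.07 (SE) in KQ and 0.76 ± 0.08 in WT, and those of Plxnd1 -1.36 ± 0.14 in KQ and -1.29 ± 0.16 in WT, all with an adjusted p of at most 1.44e-05.

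The striatal projection neuron list, which shares Plxnd1's direction, had a mean of -2.52 to -2.00 in hippocampus libraries, against -0.27 to 0.49 in neocortex libraries. Other lists shared this direction. Of 6 neocortex neuron genes, 5 were called lower and 1 higher in hippocampus in each genotype. Of 6 interneuron genes, 4 were called lower in each genotype. The part of these lists in the Plxnd1 difference was not tested. Sema5a was the class 5 member that stood higher in hippocampus, by 1.05 ± 0.10 in KQ (adjusted p = 1.31e-06) and by 1.35 ± 0.12 in WT (adjusted p = 4.84e-07), while Sema5b stood lower. The class 5 pair thus differed in sign between the regions in both genotypes.

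Plxna4, which pairs with neuropilins and binds class 6 semaphorins, was at 0.67, 0.61, 0.67, 0.51 and 0.73 in hippocampus KQ, against -0.18 to 0.19 in neocortex KQ with a median of -0.0039. In WT it was at 0.89, 0.66, 0.90 and 0.78 in hippocampus, against -0.09, -0.30, -0.09 and -0.08 in neocortex. The differences were 0.64 ± 0.08 (SE) in KQ and 0.95 ± 0.09 in WT. Plxna1 was higher in hippocampus as well, by 0.49 ± 0.08 in KQ and by 0.74 ± 0.09 in WT, so a possible receptor of Sema5b stood higher in the region where Sema5b was lower. Plxna3 differed by 0.10 ± 0.09 in KQ and by 0.20 ± 0.10 in WT, neither past the threshold.

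Among the remaining members called in both genotypes, Sema6d, Plxnb1, Plxnb2 and Plxnb3 were higher in hippocampus, at 0.23 to 0.46 in KQ and 0.33 to 0.41 in WT. Sema3f, Sema4a and Sema7a were lower, at -0.61 to -0.29 in KQ and -0.65 to -0.47 in WT. Of these, Plxnb2 in WT passed in 8 of 20 fits that left out 1 library, Plxnb3 in KQ in 15 of 20 and Sema3f in KQ in 10 of 20. Plxna2, Sema3b, Sema3d, Sema4c and Sema6b passed in KQ alone, and Sema3c, Sema4b and Sema6c in WT alone. The difference between genotypes was itself tested for all members, and 0 of 31 passed, as did 0% of all genes tested. At an unadjusted p under 0.05 there were Sema3b, Sema3c, Sema3f, Sema6b and Plxna4, beside 5.83% of all genes.

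The genes that act with plexins were compared between regions in the same fit. Of the 17 other receptors tested, 3 were higher and 4 lower in hippocampus in KQ, and 2 higher and 2 lower in WT, which is 41.2% and 23.5% beside 35.4% and 28.2% of all genes. Of the 28 effectors, 7 were higher and 8 lower in KQ, and 6 higher and 6 lower in WT, which is 53.6% and 42.9%. Rnd1, a small GTPase that binds plexins, was lower by -0.87 ± 0.06 in KQ and by -0.83 ± 0.07 in WT, and Chl1 was higher by 0.51 ± 0.06 in KQ and by 0.57 ± 0.06 in WT.

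**Figure D5:**
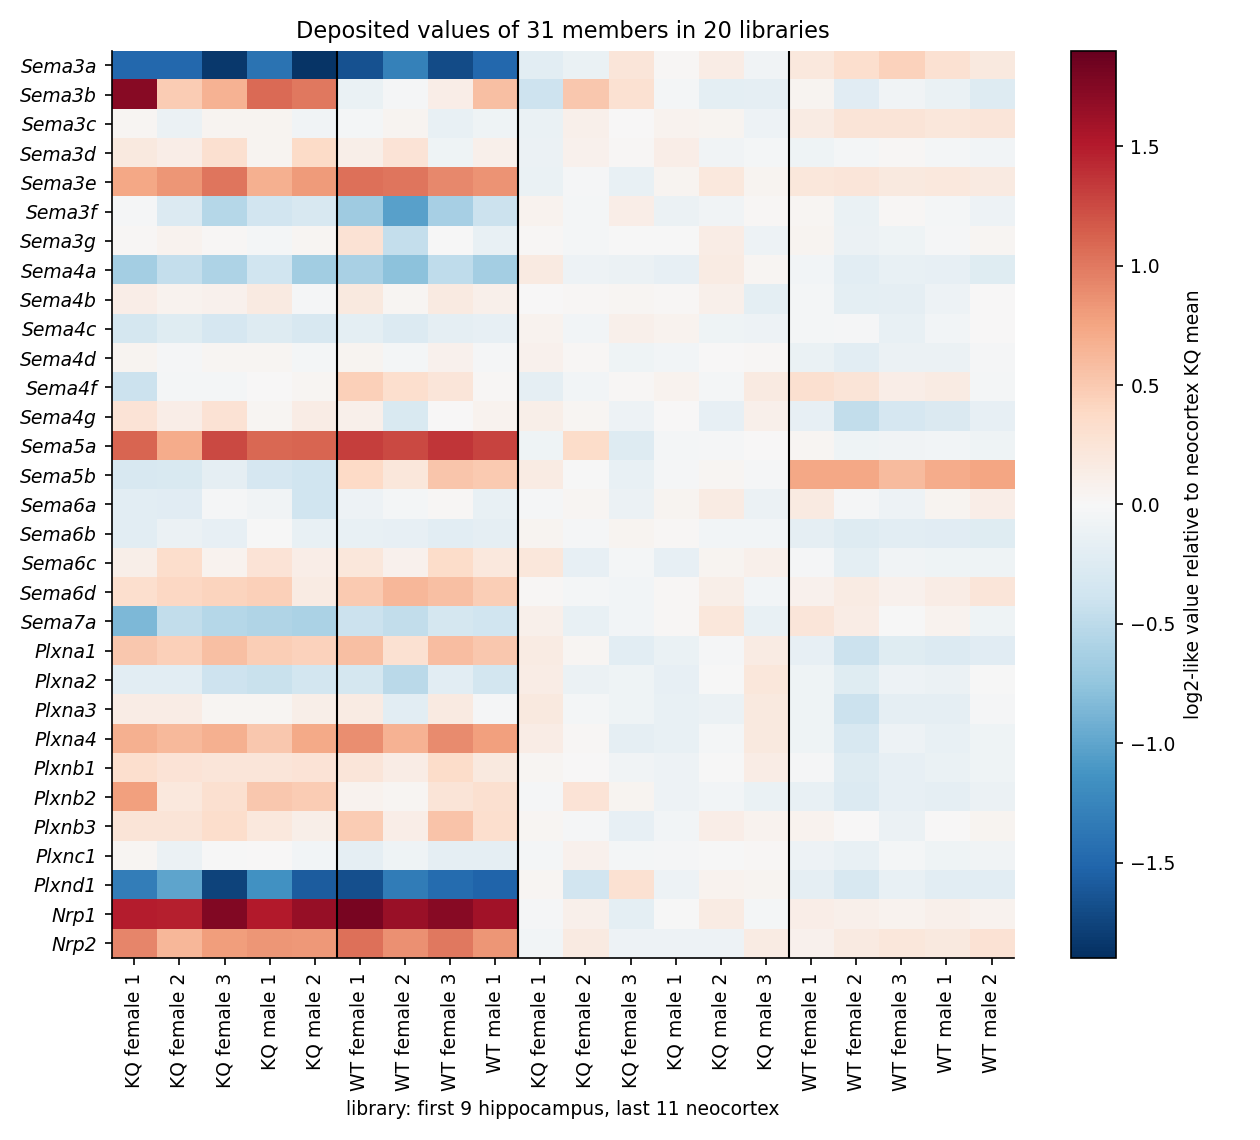
Deposited values of the 31 members (rows) in the 20 libraries (columns), hippocampus KQ and WT on the left and neocortex KQ and WT on the right, coloured on the log2-like scale relative to the neocortex KQ mean. The Sema5b row is the one in which KQ and WT columns separate in both regions, and Sema3a, Plxnd1, Nrp1 and Sema5a separate the regions.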

How the data were processed

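Per the submitters' notes and the study's methods, reads went through cutadapt, STAR 2.5.2b (mm10) and salmon, and DESeq2 1.34.0 in R 4.1.0 gave variance-stabilised values. Effects of sex and litter were then subtracted by the authors, using limma. The deposited values are thus log2-like, with no counts, and depth and precision per library cannot be had from them. Each gene averages 0 over the neocortex KQ libraries, and 4383 genes are at 0 in every library.

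Here, limma 3.58.1 in R 4.3.3 was fitted to genes not at the floor, meaning not equal within 1e-06 across 3 or more libraries that share sex, litter and region: 18310 in hippocampus, 18329 in neocortex and 17863 in both. Genotype was tested within a region with sex and litter as terms, which leaves 3 residual degrees of freedom in hippocampus and 4 in neocortex; regions and the interaction were tested in 1 fit of 20 libraries, with 11. Adjusted p-values are Benjamini-Hochberg over all genes tested, with a threshold of 0.05. The fits were also run on simulated data, drawn independently for each library. The simulation left out the earlier removal of sex and litter and the tied libraries, so it cannot check the fits on those points.

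Members and lists were chosen with earlier results of these data known. Values by library are given for Sema5b, members called between genotypes, for members whose KQ and WT libraries do not overlap, and the 6 members with the largest called regional difference in WT; others were chosen after their values were seen. Alternatives changed the terms, the filter, the centring and the libraries. Repeats came from GENCODE vM21 transcripts.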

Additional observations from a re-analysis of the deposited data

Results flagged for a closer look

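In 3 groups of 4 libraries, 1 value stood apart from the other 3 by the Dixon criterion, which chance meets in about 1 in 20 groups. The criterion was applied in every region and genotype group to each member chosen by the rule for values by library. A few such values would thus be met by chance. Sema5b was at 0.60 in neocortex WT female 3, while the others lay between 0.73 and 0.75, and this library is the WT one nearest to the KQ range. Plxna4 was at -0.30 in neocortex WT female 2, while the others lay between -0.09 and -0.08. Plxnc1 was at -0.0797 in hippocampus WT female 2, while the others lay between -0.18 and -0.17.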

How the results depend on the processing

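Sema5b stayed below 0 in all 20 alternatives in hippocampus and all 22 in neocortex, at -0.84 to -0.60 and -0.76 to -0.63. The ends of the hippocampus range are the fits without KQ female 1 and without WT male 1, which leave 1 informative library in a genotype. Some alternatives leave out a library that the sex and litter terms absorb, so they return the main fit and could not differ. The Sema5b difference in hippocampus passed without sex or litter terms (-0.69, 2.04% of all genes called), with sex alone (-0.69, 0.803%) and with litter as a random effect (-0.68, 0.819%). It also passed with both regions in 1 fit (-0.69, 0.386%), with females joined as well (-0.70) and, chosen after seeing the data, without both KQ female 2 libraries (-0.70). Sema5b was the 1 member called under each of these. In neocortex Sema5b no longer passed without a filter (-0.69, adjusted p = 0.104, 0 members) or without WT male 2 (adjusted p = 0.208), and 0% of all genes were called in either. Nor did Sema5b pass without KQ female 3, KQ male 1 or WT female 3, which all return the same fit (adjusted p = 0.0505, 0.00546% of all genes called). The cause was not tested. Leaving out 1 library gave 0 to 1 members in neocortex, where 0% to 0.0491% of all genes were called. In hippocampus it gave 0 members and at most 0.00546% of all genes. This sets aside the fits without WT male 1 or KQ female 1, which leave 1 informative library in a genotype. In the region comparisons leaving out 1 library gave 17 to 21 members in KQ and 16 to 22 in WT. With all libraries kept, 35.4% of all genes were called in KQ and 28.2% in WT.

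In neocortex 9 members were called without sex or litter terms, where 15% of all genes were called, and 8 with sex alone (10.6% of all genes), 8 with litter as a random effect (13.2%) and 8 with the replicate number as a block (10.1%); these fits count no degrees of freedom for the litter already removed. With the block Sema5b was at -0.67 in hippocampus (adjusted p = 0.0893) and -0.70 in neocortex (adjusted p = 0.000367). Deviations of same-numbered KQ and WT libraries from their group means had correlations of -0.60 to 0.12. Some of these libraries share sex and litter, such as female 1 in both regions, and litter had been removed beforehand. The correlations therefore cannot show whether same-numbered libraries are linked. With females joined across regions by a random effect as the block, 21 members were called between regions in KQ and 23 in WT. Without read depth, the precision of low genes cannot be had.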
